A study of Homo sapiens with 6 samples.

Results

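Each of 3 stable CAL27 lines was sequenced as a library A and a library B, and the differences between B and A within a line are described here. The comparison takes in all 6 samples of the series, as 3 pairs. CAL27 is an established human tongue carcinoma line, which the labels call adenosquamous. The lines carried an empty vector (EmpVec), the wild-type form of MB21D2 (WTMB21) or its Q311E form (Q311E), a glutamine-to-glutamate change. Both forms were expressed constitutively and, per the labels, as GFP fusions, and all lines were kept in DMEM with serum and the selection drug G418. The labels do not give the promoter of the constructs or say whether a line is a clone or a pool. What distinguishes A from B, whether another culture, extraction or sequencing run, is not in the labels. B minus A may therefore be technical in any line, and a p-value speaks for the spread of these samples alone.

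MB21D2 belongs to the Mab-21 protein family, which also holds the cytosolic DNA sensor cGAS. Several gene programmes of epithelial cells are known to rise and fall together. Hypoxia-inducible factors drive genes such as CA9, the coactivators YAP and TAZ drive genes such as AXL and ANKRD1, and growth factors drive immediate early genes such as FOS. Type I interferon acts through a complex that includes STAT2 and IRF9 on a shared promoter element, and its targets restrict viruses.

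Values are FPKM, the reads of a gene scaled to its length and to the library total. Tests covered the 11481 genes whose mean FPKM over the 6 libraries reached 1. Differences are in log2(FPKM + 1), a scale that shrinks the changes of low genes. The library totals, inferred from the FPKM values, lay between 20645410 and 24147306 reads. All 10 markers of squamous epithelium had a mean of at least 1 FPKM, with KRT5, a basal keratin, between 405 and 579 FPKM, but KRT14, its usual partner, stood at 762 and 697 FPKM in the EmpVec A and B libraries, 2.08 and 2.35 in WTMB21 and 0.771 and 0.902 in Q311E. Of the markers of other cell types, PTPRC, which marks blood cells, was listed at 0 in 5 libraries and at 0.00478 FPKM in the other. Of 8 fibroblast markers DCN was at or near 0 in all 6 libraries, while COL1A1, a collagen chain, lay between 0.984 and 1.85 FPKM. The Q311E libraries stood apart from each other far more than the other pairs did, so the count of shared calls is also given without that pair.

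MB21D2 (ENSG00000180611, GRCh38 chromosome 3, 192796815 to 192918161), the gene expressed from the constructs, was at 8.31 and 7.15 FPKM in the EmpVec A and B libraries, 104 and 106 in WTMB21 and 32.8 and 21.2 in Q311E. Both libraries of each line lay on the side their label gives, and the Q311E B library held less MB21D2 RNA than its partner A. B minus A was -0.19, 0.019 and -0.60 in EmpVec, WTMB21 and Q311E, and the Q311E pair's difference from the other pairs missed the threshold in limma (-0.52 ± 0.12, adjusted p = 0.0591). The table gives no way to tell the construct's RNA from that of the chromosomal gene.

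The pairs differed in how far B lay from A. The SD of B minus A over the 11481 genes was 0.192 in EmpVec, 0.145 in WTMB21 and 0.436 in Q311E. The variance was set against what counting reads alone gives, over the 10347 genes with at least 100 reads on average. The mean ratio was 3.04 in WTMB21, 17.5 in EmpVec and 102 in Q311E. Taken from the median gene, the ratio was lower, at 2.12, 5.24 and 30.1 in the same order. No pair thus agreed within sampling noise, and each was kept as 2 libraries. The SDs of the differences between line means were 0.443 for WTMB21 minus EmpVec, 0.468 for Q311E minus EmpVec and 0.534 for Q311E minus WTMB21. By this SD the 2 Q311E libraries lay about as far apart as the means of different lines. The measures are unlike, since single libraries carry more noise than means of 2. Past 2-fold were 415, 478 and 731 genes between the line means, in the same order, and 386 between the Q311E libraries.

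With 1 library per letter a single pair has no error of its own, so its genes were counted past 2-fold, without a test. In EmpVec 46 genes passed (0.401% of those tested), 33 higher (0.287%) and 13 lower (0.113%) in B. In WTMB21 32 passed (0.279%), 19 higher (0.165%) and 13 lower (0.113%). In Q311E 386 passed (3.36%), 246 higher (2.14%) and 140 lower (1.22%). Most of the EmpVec and WTMB21 genes held few reads. Those with fewer than 100 reads on average made up 37 of the 46 and 31 of the 32, against 111 of the 386 in Q311E. Of the genes past 2-fold with at least 100 reads, EmpVec had 9 higher and 0 lower in B, WTMB21 0 and 1, and Q311E 175 and 100.

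The design's first question is whether B differed from A in the same way in all lines. In limma, with the line as a block, 0 of the 11481 genes were called (0%) at an adjusted p under 0.05, and 388 had an unadjusted p under 0.05. The smallest adjusted p was 0.597. Without the EmpVec, WTMB21 or Q311E pair the count stayed at 0, with 151, 1117 and 496 genes at an unadjusted p under 0.05. All 3 differences were above 0 for 1636 genes (14.2%) and below 0 for 2452 (21.4%). EmpVec and Q311E had the same sign for 68.6% of the genes. WTMB21 had the same sign as EmpVec for 51.5% and as Q311E for 51.1%. The shares over 3 pairs thus include the agreement of EmpVec with Q311E, and do not by themselves show a direction common to all lines.

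By the rule for named genes, the genes ranked highest by the smallest of their 3 differences were mostly small RNAs with few reads. MIR93, a microRNA gene, stood at 0 and 1.82 FPKM in the EmpVec A and B libraries, 1.10 and 2.34 in WTMB21 and 0 and 1.16 in Q311E, which came from at most 4 reads in any library. BCYRN1, a short cytoplasmic RNA of primate neurons and tumours, stood at 13 and 28.6 FPKM in the EmpVec A and B libraries, 3.95 and 8.68 in WTMB21 and 0.705 and 1.39 in Q311E. Both were higher in B in each line, and the BCYRN1 ranges of the 3 lines did not overlap.

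Among genes with at least 100 reads on average, a limit chosen after the values were seen, the same ranking named genes such as S100A14, RPS28 and HLA-DRB1. S100A14, a calcium-binding protein of epithelia, was at 55 and 73.7 FPKM in the EmpVec A and B libraries, 14.4 and 18.3 in WTMB21 and 26 and 35.3 in Q311E. Its differences were 0.41, 0.33 and 0.43 (limma, 0.39 ± 0.062, adjusted p = 0.597). RPS28, a protein of the small ribosomal subunit, was at 209.6 and 255 FPKM in the EmpVec A and B libraries, 251 and 299 in WTMB21 and 194 and 328 in Q311E. Its differences were 0.28, 0.25 and 0.76 (0.43 ± 0.13, adjusted p = 0.597 in limma). HLA-DRB1, a class II chain whose reads cannot be told from those of its near copies with certainty, was at 18.2 and 22.7 FPKM in the EmpVec A and B libraries, 4.35 and 5.46 in WTMB21 and 16.5 and 41.6 in Q311E, with differences of 0.30, 0.27 and 1.28. S100A14 differed about evenly in the 3 lines, and RPS28 and HLA-DRB1 more in Q311E. HOXD9, a homeobox factor, and TJP3, a tight junction protein, of the same ranking differed by 0.78, 0.30 and 0.93 and by 0.38, 0.26 and 1.48. All of these were higher in B in every line, and none passed the shared test.

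On the lower side, POMK, a kinase of dystroglycan glycosylation, was at 3.99 and 2.74 FPKM in the EmpVec A and B libraries, 4.20 and 3.15 in WTMB21 and 4.96 and 1.48 in Q311E. Its differences were -0.42, -0.33 and -1.27 (-0.67 ± 0.21, adjusted p = 0.597 in limma). CYP51A1, an enzyme of cholesterol synthesis, was at 3.37 and 2.40 FPKM in the EmpVec A and B libraries, 1.69 and 1.24 in WTMB21 and 4.07 and 2.66 in Q311E, and its differences were -0.36, -0.27 and -0.47. MYBL1, a transcription factor of the MYB family, was at 5.41 and 4.18 FPKM in the EmpVec A and B libraries, 7.23 and 6.08 in WTMB21 and 4.87 and 2.27 in Q311E. Each lay lower in B in every line, with the widest gap in Q311E.

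Of 37 gene lists with 604 tested members, the cytosolic ribosomal proteins were the most uniform. Of 44 tested members 43 in EmpVec, 40 in WTMB21 and 44 in Q311E were higher in B, and 39 were higher in all 3 pairs. Over all tested genes 46.1%, 44.9% and 45.7% were higher in B in the 3 pairs. The list's medians were 0.095, 0.055 and 0.45, beside -0.013, -0.010 and -0.037 over all tested genes. The EmpVec shift hung on the scaling. Quantile normalization left 25 of the 44 higher in B, with a median of 0.015, and scaling to equal sums of FPKM left 24. In WTMB21 quantile normalization left 30, with a median of 0.036, and the other scalings 39 or more. In Q311E 38 of the 44 or more stayed higher under each of the 4 other scalings tried. Ribosomal proteins have near-identical pseudogenes, so single members are uncertain.

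Nuclear-encoded subunits of the respiratory chain were mostly higher in B too, 26, 23 and 29 of 31, with medians of 0.15, 0.036 and 0.22. Of the 31, 19 were higher in all 3 pairs. With equal sums of FPKM 21, 23 and 21 were higher, with medians of 0.058, 0.036 and 0.11. Of the 18 glycolysis genes tested, 16, 12 and 15 were higher in B, with medians of 0.049, 0.016 and 0.28, though the EmpVec median turned to -0.033 when libraries were scaled to equal sums of FPKM. None of the members of any list passed the shared test.

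**Figure D1:**
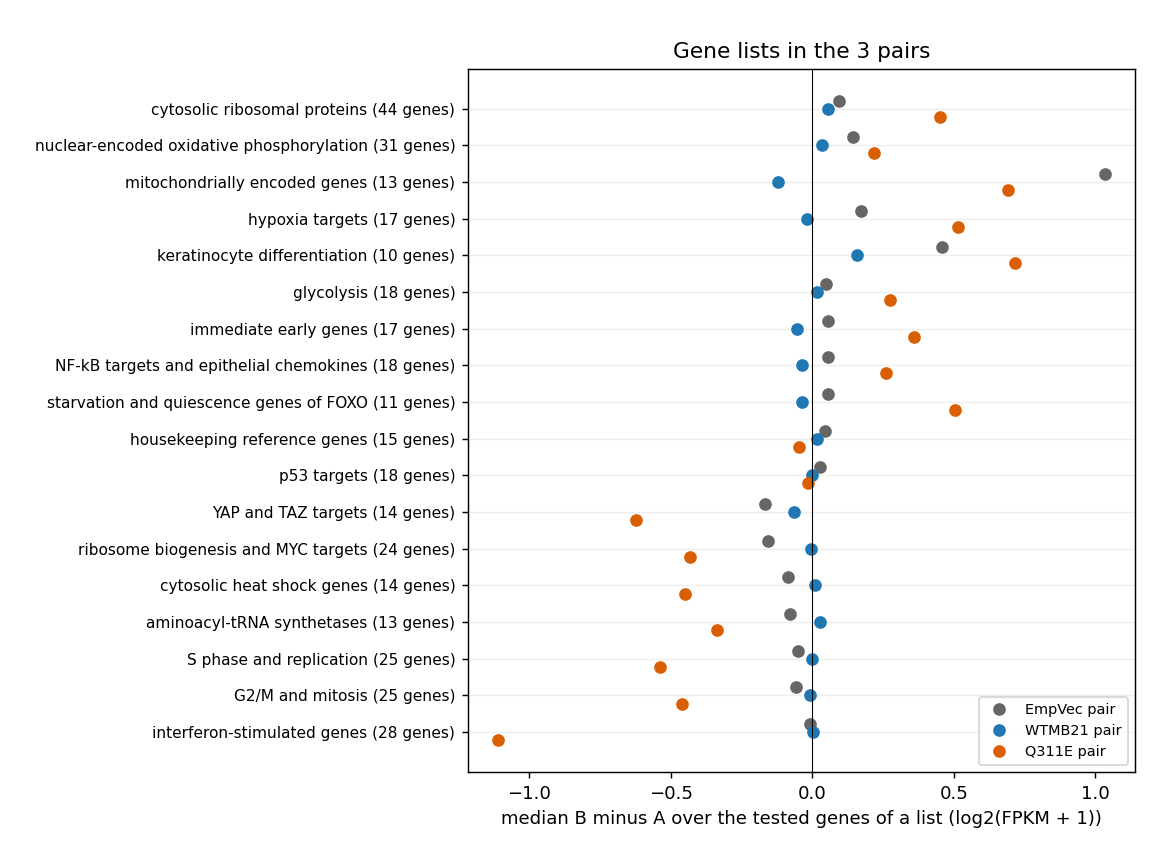
Median B minus A (x axis, log2(FPKM + 1)) over the tested genes of 18 gene lists (y axis, number of genes in brackets) in the EmpVec (grey), WTMB21 (blue) and Q311E (orange) pairs. WTMB21 medians lie near 0, the EmpVec medians mostly lie on the same side as those of Q311E, and the interferon-stimulated genes leave 0 in Q311E, at -1.11.

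EmpVec and Q311E shared a pattern of differences that WTMB21 did not show. Across 10347 genes with at least 100 reads on average, B minus A in EmpVec and in Q311E had a Pearson correlation of 0.528 and a Spearman correlation of 0.526. The same values for WTMB21 were 0.0090 and 0.015 with EmpVec, and -0.0072 and 0.0016 with Q311E. Over all 11481 tested genes the Pearson correlation of EmpVec with Q311E was 0.387. Genes are not independent replicates, and these are descriptions over the genes of 2 pairs that share no library. B lay on the same side of A in both pairs for 69.9% of the 10347 genes.

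Exon length moved with both pairs. The Spearman correlation of B minus A with length was -0.278 in EmpVec, -0.231 in Q311E and -0.023 in WTMB21, so longer genes were lower in B. With the trend with length removed, EmpVec and Q311E still correlated at 0.495 over the genes with at least 100 reads. Without mitochondrially encoded genes the Pearson correlation over the remaining 11452 tested genes was 0.384.

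The EmpVec genes past 1.5-fold were compared with those of Q311E. Over all tested genes 140 were 1.5-fold higher in B in EmpVec, of which 60 (42.9% of the EmpVec and 7.29% of the 823 Q311E genes) were also higher by that much in Q311E and 17 lower, while 7.17% of all genes were higher by that much in Q311E. Of 52 that were 1.5-fold lower in EmpVec, 13 (25%, and 1.94% of the 671 Q311E genes) were also lower in Q311E and 6 higher, beside 5.84% of all genes. Among genes with at least 100 reads, 45 were 1.5-fold higher in B in EmpVec. Of these, 36 (80.0% of the EmpVec genes, and 5.98% of the 602 Q311E genes) were also higher by that much in Q311E, and 0 were lower, while 5.82% of all such genes were higher by that much in Q311E. No such gene was 1.5-fold lower in EmpVec, and 565 were in Q311E. In WTMB21 0 genes were 1.5-fold higher and 2 lower.

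**Figure D2:**
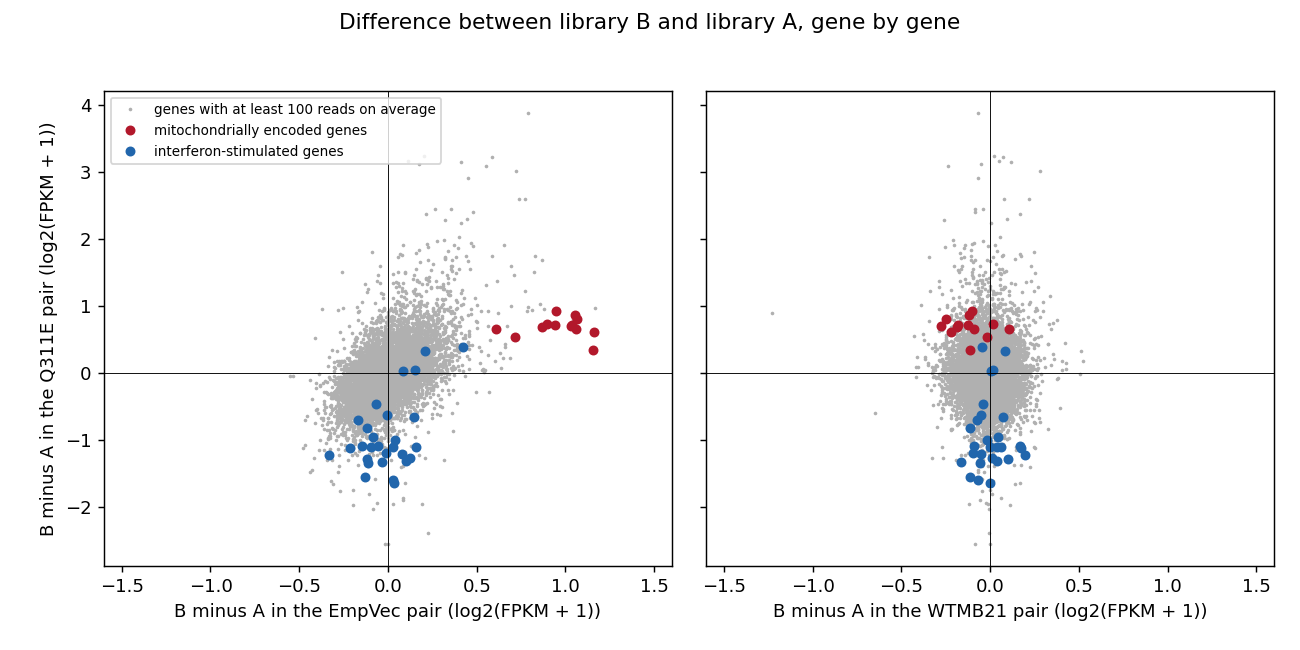
B minus A in the Q311E pair (y axis) against B minus A in the EmpVec pair (left) and the WTMB21 pair (right), both in log2(FPKM + 1), for 10347 genes with at least 100 reads on average (grey). Mitochondrially encoded genes (red) are high in both EmpVec and Q311E, interferon-stimulated genes (blue) are low in Q311E alone, and the cloud slopes on the left (Pearson 0.528) but not on the right (-0.0072).

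The largest shift in EmpVec was in the mitochondrially encoded genes, which are transcribed from the organelle's own genome and encode core subunits of the respiratory chain. All 13 were higher in B in EmpVec, 7 of them past 2-fold, with a median of 1.03. All 13 were higher in Q311E, with a median of 0.69, and 2 of 13 in WTMB21, with a median of -0.12. MT-CO1, a catalytic subunit of cytochrome c oxidase, was at 1470.3 and 3067 FPKM in the EmpVec A and B libraries, 2651 and 2486 in WTMB21 and 2150.4 and 3375 in Q311E. MT-ND4, a complex I subunit, was at 941 and 2102 FPKM in the EmpVec A and B libraries, 1969 and 1689.7 in WTMB21 and 1378 and 2099 in Q311E. The EmpVec A and Q311E A libraries thus held the lowest levels of both genes, and the WTMB21 libraries lay between them and the B libraries of the other lines.

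Mitochondrially encoded genes took 1.12% of the reads in EmpVec A and 2.18% in B, 1.91% and 1.77% in WTMB21, and 1.46% and 2.35% in Q311E. No member was called in limma for the Q311E pair against the other pairs, and none for the EmpVec pair. Under quantile normalization 11 of 13 in EmpVec and 10 of 13 in Q311E were higher in B, and the Q311E median was 0.26. Nuclear copies such as MTATP6P1 can share reads with them.

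The genes of S100A8, S100A9 and S100A7, proteins which keratinocytes make in stress and inflammation, were higher in B in both EmpVec and Q311E. S100A8 was at 151 and 262 FPKM in the EmpVec A and B libraries, 1.92 and 1.79 in WTMB21 and 10.7 and 171 in Q311E. S100A9, its partner, was at 1434 and 2154 FPKM in the EmpVec A and B libraries, 139 and 146 in WTMB21 and 287 and 2671 in Q311E. S100A7, or psoriasin, whose reads may include those of near copies, was at 70.2 and 116 FPKM in the EmpVec A and B libraries, 1.17 and 1.64 in WTMB21 and 6.77 and 61.4 in Q311E. In Q311E A all 3 lay between the WTMB21 and the EmpVec levels, and in Q311E B they stood close to or above the EmpVec levels.

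B minus A was 0.79, -0.066 and 3.88 for S100A8 and 0.59, 0.071 and 3.21 for S100A9 in EmpVec, WTMB21 and Q311E. The Q311E pair exceeded the mean of the other pairs for S100A8 (3.52 ± 0.33, adjusted p = 0.0143), for S100A9 (2.89 ± 0.22, adjusted p = 0.0123) and for S100A7 (2.51 ± 0.19, adjusted p = 0.0123) in limma. Of 10 tested genes of keratinocyte differentiation, 8, 9 and 7 were higher in B in the 3 pairs, with medians of 0.46, 0.16 and 0.72. Of the 10, CALML3, CALML5 and CNFN reached the filter through the Q311E libraries alone. KLK5, a protease of the cornified layer on the same list, was called the other way in the Q311E pair, from 134 to 104 FPKM.

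The hypoxia list, targets of hypoxia-inducible factors, was higher in B in the same pairs. Of 17 tested genes 14 in EmpVec, 5 in WTMB21 and 14 in Q311E were higher in B, with medians of 0.17, -0.018 and 0.52. With equal sums of FPKM 10, 5 and 14 were, with medians of 0.086, -0.018 and 0.40. CA9, a cell-surface carbonic anhydrase, was at 4.07 and 7.65 FPKM in the EmpVec A and B libraries, 1.36 and 1.75 in WTMB21 and 1.70 and 15.3 in Q311E. DDIT4, an inhibitor of mTORC1, was at 106 and 148 FPKM in the EmpVec A and B libraries, 16.8 and 16.7 in WTMB21 and 50.2 and 189.7 in Q311E. NDRG1, a cytoplasmic stress protein, was at 1.49 and 2.31 FPKM in the EmpVec A and B libraries, 0.304 and 0.310 in WTMB21 and 0.981 and 8.37 in Q311E. In each of these 3 genes both WTMB21 libraries lay below both EmpVec libraries, and B exceeded A in EmpVec and Q311E.

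The size of the difference varied between lines. For the Q311E pair against the others, 8 of the 17 hypoxia genes were called higher and 1 lower, where 4.14% of all tested genes were called higher and 4.15% lower. With no trend in the variance prior the counts were 3 and 0. The values were 2.10 ± 0.25, adjusted p = 0.0182 for CA9, 2.03 ± 0.23, adjusted p = 0.0171 for NDRG1 and 1.66 ± 0.20, adjusted p = 0.0194 for DDIT4 (limma). P4HA2, a collagen prolyl hydroxylase, was the member called lower, from 18.6 to 11 FPKM in Q311E. VEGFA, the angiogenic growth factor, differed by 0.072, -0.091 and 0.39 and was not called (adjusted p = 0.0964 in limma).

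The promoter of CA9 illustrates the element through which hypoxia-inducible factors act, and is shown for that reason. It was taken from the RefSeq promoter table on GRCh38.p14, from 25 bases before the element to the base before the gene start (chr9:35673885-35673927, forward strand), with the element in capitals on the reverse strand of the gene, where it reads ACGTG.
CA9: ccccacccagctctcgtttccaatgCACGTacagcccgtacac
The motifs ACGTG and GCGTG were searched on both strands of the 250 bases before the start. They were found in 11 of the 14 hypoxia genes in the table (78.6%), in 58.8% of the 8752 tested genes in the table and in 43.1% of all 27305 promoters. A match is a description of the letters, not a site in use.

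Other genes high in B in both lines, chosen after their values were seen, came from several programmes. FOS, an immediate early AP-1 factor, was at 8.16 and 15.2 FPKM in the EmpVec A and B libraries, 87.4 and 81.4 in WTMB21 and 58.3 and 167 in Q311E. EGR1, an immediate early zinc finger factor, was at 15.7 and 29.2 FPKM in the EmpVec A and B libraries, 163 and 157 in WTMB21 and 94.9 and 194 in Q311E. NEAT1, a long RNA that builds nuclear paraspeckles, was at 22.7 and 39.8 FPKM in the EmpVec A and B libraries, 13.5 and 13.2 in WTMB21 and 29.1 and 58.2 in Q311E. In all 3 the WTMB21 libraries lay close together, while B was well above A in the other lines. The Q311E pair did not differ from the mean of the others at the threshold in limma for FOS (1.14 ± 0.36, adjusted p = 0.108), EGR1 (0.63 ± 0.35, adjusted p = 0.292) or NEAT1 (0.60 ± 0.32, adjusted p = 0.270).

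Genes low in B in both lines, also chosen after their values were seen, included CCND1, DKK1 and THBS1. CCND1, the cyclin of the G1 phase, was at 66.6 and 47.9 FPKM in the EmpVec A and B libraries, 121 and 116 in WTMB21 and 113 and 53.1 in Q311E. DKK1, a secreted WNT inhibitor, was at 49.3 and 35 FPKM in the EmpVec A and B libraries, 63.4 and 64 in WTMB21 and 49.3 and 22.1 in Q311E. THBS1, the matrix protein thrombospondin, was at 412 and 315 FPKM in the EmpVec A and B libraries, 309 and 299.8 in WTMB21 and 417 and 188 in Q311E. B was below A by more in Q311E than in EmpVec, and WTMB21 differed by -0.069, 0.013 and -0.043. Only THBS1 of the 3 was called for the Q311E pair against the others (-0.93 ± 0.16, adjusted p = 0.0365 in limma).

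YAP and TAZ targets were the most uniformly low list. Of 14 tested members 12, 10 and 13 were lower in B, with medians of -0.17, -0.063 and -0.62, and 9 were lower in all 3 pairs. AXL, a receptor tyrosine kinase, was at 98.1 and 80.6 FPKM in the EmpVec A and B libraries, 151 and 148 in WTMB21 and 111 and 39.1 in Q311E. F3, tissue factor, was at 395 and 378 FPKM in the EmpVec A and B libraries, 417 and 393 in WTMB21 and 372 and 158 in Q311E. CCN2, a matricellular protein on the same list, was higher in B in EmpVec and Q311E, at 15.3 and 21.9 and at 67.7 and 148 FPKM. For the Q311E pair against the others 7 of 14 were called lower (3 with no trend in the variance prior) and 0 higher, beside 4.15% and 4.14% of all tested genes. Among the 7 were AXL (-1.32 ± 0.13, adjusted p = 0.0143) and F3 (-1.16 ± 0.091, adjusted p = 0.0134) in limma.

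Genes of ribosome biogenesis, most of them MYC targets, were lower in B for 22 of 24 in EmpVec and 22 of 24 in Q311E, against 13 of 24 in WTMB21. The medians were -0.16, -0.0038 and -0.43. WDR43, a nucleolar factor, was at 32.6 and 26.7 FPKM in the EmpVec A and B libraries, 42.7 and 40.1 in WTMB21 and 25.6 and 15.9 in Q311E. Of the 24, 2 were called lower and 0 higher for the Q311E pair against the others, beside 4.15% of all tested genes called lower. The 2 calls became 0 with a pseudocount of 0.1, with median scaling and with no trend in the variance prior, and 10 with equal sums of FPKM. The protein genes of the ribosome and the factors that assemble it therefore had medians on opposite sides of 0 in Q311E. In EmpVec they did so as deposited, but the median of the protein genes was only 0.0041 with equal sums of FPKM.

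**Figure D3:**
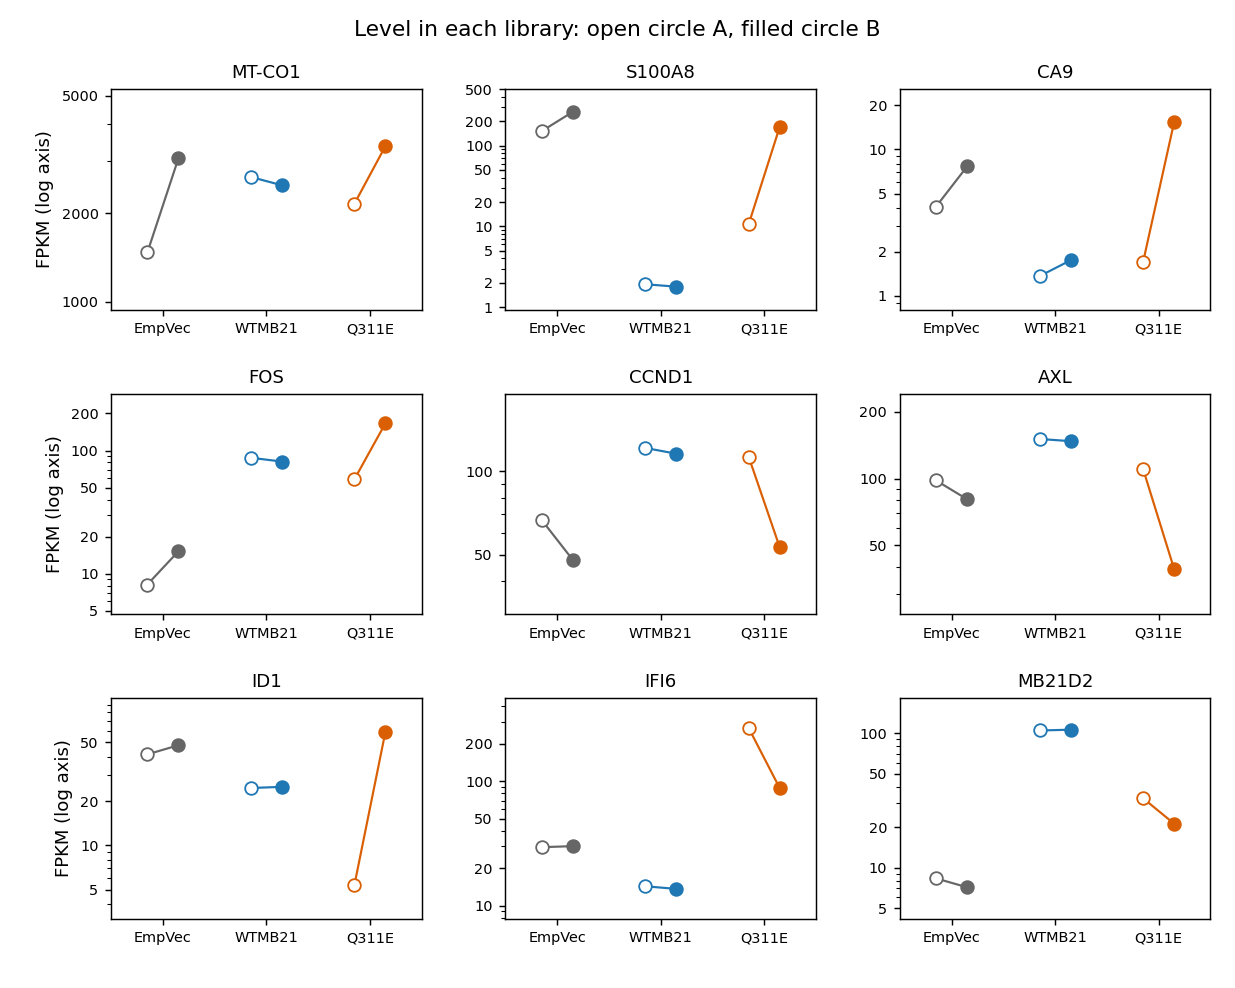
FPKM (log axis) of 9 genes in library A (open) and B (filled) of EmpVec (grey), WTMB21 (blue) and Q311E (orange), 1 point per library. MT-CO1, S100A8, CA9 and FOS are higher in B and CCND1 and AXL lower in EmpVec and Q311E, while ID1 and IFI6 move by more than 3-fold only between the Q311E libraries, and the WTMB21 points of each gene lie close together.

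The differences of EmpVec and of WTMB21 were each set against the mean of the other 2 pairs. No gene was called in either test (0 of 11481, 0%), with 70 and 192 genes at an unadjusted p under 0.05. The spread in both tests includes the gap between Q311E and the remaining pair, so they are wide. The shared pattern of EmpVec and Q311E against WTMB21 was thus not called for any single gene.

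In WTMB21 the genes with at least 100 reads that differed most were few and scattered, and were chosen after their values were seen. POLR2I, a small subunit of RNA polymerase II, was at 12.5 and 13 FPKM in the EmpVec A and B libraries, 7.83 and 11.7 in WTMB21 and 5.91 and 6.79 in Q311E. HSD11B2, which inactivates cortisol, was at 1.88 and 1.65 FPKM in the EmpVec A and B libraries, 2.79 and 1.42 in WTMB21 and 1.90 and 0.918 in Q311E. MTND2P28, a nuclear copy of a mitochondrial gene, was at 3.05 and 3.71 FPKM in the EmpVec A and B libraries, 12.6 and 4.81 in WTMB21 and 2.34 and 5.18 in Q311E, and was the 1 gene past 2-fold. B minus A in WTMB21 was 0.53 for POLR2I, -0.65 for HSD11B2 and -1.23 for MTND2P28.

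The Q311E pair was then set against the mean of the EmpVec and WTMB21 pairs. Its spread rests on the gap between those 2 pairs, with 1 residual degree of freedom and limma's prior over all genes. The test thus assumes that the lone Q311E pair varies as those pairs do, which 1 pair cannot show. The SD of B minus A was 0.436 in Q311E, against 0.192 in EmpVec and 0.145 in WTMB21. If the Q311E pair is merely noisier, the adjusted p-values are too small and the calls too many. Of 11481 genes 951 (8.28%) were called, 475 with B minus A above that of the other pairs (4.14%) and 476 below (4.15%). Of the 11481, 325 had a mean below 1 FPKM over the EmpVec and WTMB21 libraries and so reached the filter through the Q311E libraries alone. They hold 37 of the 951 calls, which the filter favours. No test value is printed for such a gene. Where a list's count of calls includes such genes, the count without them is given too. The split depends on the scaling. With libraries scaled to equal sums of FPKM, 665 were called above and 1121 below, and with sums that leave out mitochondrially encoded genes, 568 above and 866 below. The median of all tested genes in the Q311E pair was -0.037 as deposited and -0.144 with equal sums. The count was 2087 on recovered reads with limma-voom and 271 with no trend in limma's variance prior. Without the filter on low values 0 genes were called, with 6525 of 30178 at an unadjusted p under 0.05.

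The interferon-stimulated genes separated the Q311E libraries most clearly among the lists. Of 28 tested, 24 were lower in B and 18 of them past 2-fold, with a median of -1.11. In EmpVec and WTMB21 the medians were -0.0075 and 0.0024, and 0 members passed 2-fold. For the Q311E pair against the others 21 of 28 were called lower and 0 higher, beside 4.15% and 4.14% of all tested genes. Without the 3 members that reached the filter through the Q311E libraries alone, 18 of 25 were called lower. The count taken without that exclusion was between 16 and 24 under each alternative but the one without a filter, where it was 0.

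IFI6, a mitochondrial antiviral protein, was at 29.5 and 30.1 FPKM in the EmpVec A and B libraries, 14.3 and 13.6 in WTMB21 and 267 and 87.9 in Q311E. MX1, a dynamin-like GTPase that blocks viruses, was at 8.19 and 8.42 FPKM in the EmpVec A and B libraries, 6.45 and 6.46 in WTMB21 and 43.8 and 13.3 in Q311E. ISG15, a ubiquitin-like modifier, was at 96.3 and 103 FPKM in the EmpVec A and B libraries, 68.2 and 70.2 in WTMB21 and 314 and 125 in Q311E. In all 3 both Q311E libraries lay above the other 4, and A lay far above B. The differences from the other pairs were -1.57 ± 0.093, adjusted p = 0.0101 for IFI6, -1.67 ± 0.10, adjusted p = 0.0101 for MX1 and -1.39 ± 0.088, adjusted p = 0.0101 for ISG15 in limma.

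Over the list, Q311E A lay 1.93 above the mean of the EmpVec and WTMB21 libraries at the median, and Q311E B 0.92. RSAD2, the antiviral enzyme viperin, was at 0.859 and 0.698 FPKM in the EmpVec A and B libraries, 0.241 and 0.149 in WTMB21 and 9.90 and 2.69 in Q311E. With MX2 and XAF1 it was 1 of 3 listed genes that reached the filter through the Q311E libraries alone, and 18 of the other 25 were called lower. IFIT1, which binds viral RNA, was at 9.20 and 8.39 FPKM in the EmpVec A and B libraries, 2.56 and 2.82 in WTMB21 and 31.8 and 12.4 in Q311E (-1.28 ± 0.14, adjusted p = 0.0165 in limma). The members that were higher in B were IFITM1 and IFITM3, membrane proteins that block viral entry, and BST2 and LGALS3BP. IFITM1 was at 38 and 51.3 FPKM in the EmpVec A and B libraries, 18.2 and 17.6 in WTMB21 and 99 and 130.1 in Q311E, and IFITM3 at 250.3 and 289 FPKM in the EmpVec A and B libraries, 168 and 178 in WTMB21 and 371 and 465 in Q311E, so these followed neither the direction nor the size of the rest.

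**Figure D4:**
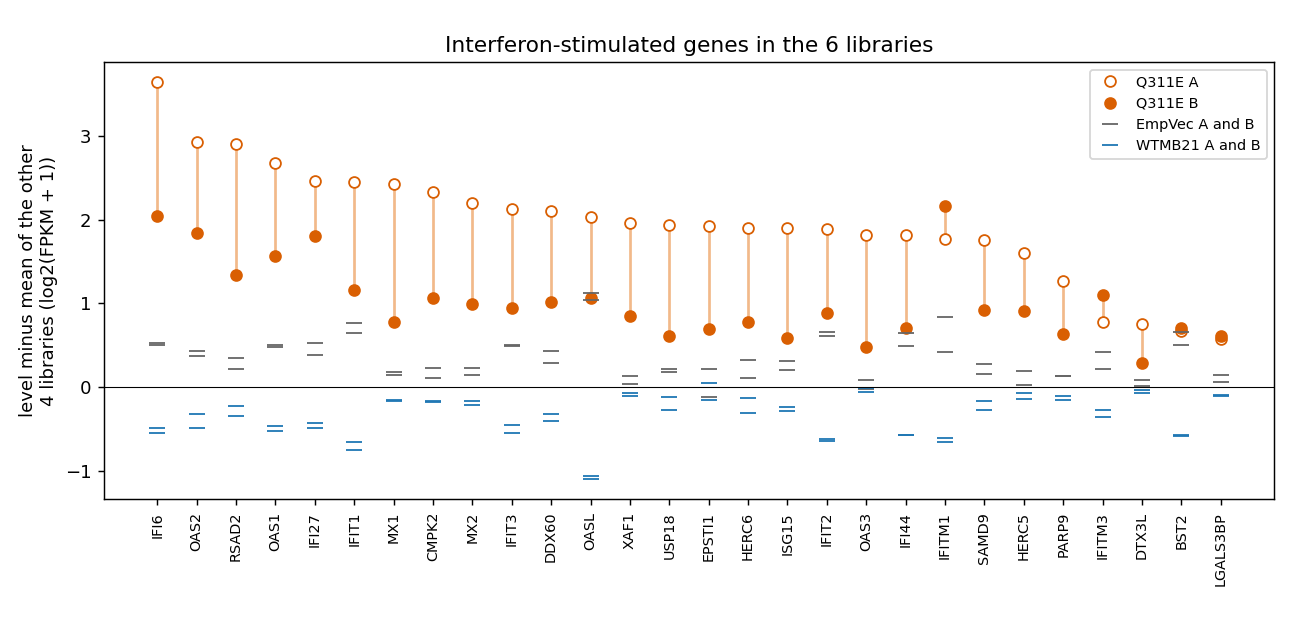
Level of 28 interferon-stimulated genes (x axis) minus the mean of the EmpVec and WTMB21 libraries (y axis, log2(FPKM + 1)), with Q311E A open, Q311E B filled and EmpVec and WTMB21 libraries as grey and blue dashes. Q311E A lies above Q311E B in 24 of the 28 genes, and both lie above 0.

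Many promoters of this list hold the interferon-stimulated response element, and 5 are shown because their genes fell together between the Q311E libraries. They come from the RefSeq table on GRCh38.p14, each from up to 25 bases on either side of the match nearest the gene start, written in the direction of the gene with GAAANNGAAA, or its reverse complement, in capitals. The windows are at chr1:27672251-27672310, reverse strand for IFI6, chr10:89392495-89392554, forward strand for IFIT1, chr1:1013365-1013424, forward strand for ISG15, chr4:168318771-168318830, reverse strand for DDX60 and chr12:112938437-112938473, forward strand for OAS3.
IFI6: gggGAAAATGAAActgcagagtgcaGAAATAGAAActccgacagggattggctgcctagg
IFIT1: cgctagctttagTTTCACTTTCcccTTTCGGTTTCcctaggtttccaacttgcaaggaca
ISG15: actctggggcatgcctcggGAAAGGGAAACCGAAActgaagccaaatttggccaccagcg
DDX60: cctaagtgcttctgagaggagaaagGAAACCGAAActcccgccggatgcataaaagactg
OAS3: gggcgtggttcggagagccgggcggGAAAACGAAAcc
The motif, on both strands of the 250 bases before the start, was found in 15 of the 23 listed genes in the table (65.2%), in 2.43% of the tested genes there and in 3.07% of all promoters. It was also in the promoters of IFITM1, IFITM3, BST2 and LGALS3BP, which were not lower in Q311E B. MX1 and RSAD2 had no match in this window.

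Signalling genes of the pathway moved apart. IRF7, an interferon-inducible factor, was at 3.15 and 3.41 FPKM in the EmpVec A and B libraries, 3.20 and 3.30 in WTMB21 and 16.9 and 8.89 in Q311E (-0.91 ± 0.12, adjusted p = 0.0214 in limma). STAT2 stayed at 26.9 and 28.3 FPKM in the Q311E libraries, against 9.53 and 10.7 in EmpVec. IFNGR1, a receptor chain for interferon gamma, was higher in B, at 40.6 and 44.4 FPKM in the EmpVec A and B libraries, 25 and 24.2 in WTMB21 and 20.0 and 42.5 in Q311E (1.01 ± 0.11, adjusted p = 0.0166). IRF7 and the receptor chain thus differed in opposite directions.

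Of 11 tested genes for the sensing of foreign nucleic acid 1 was called higher and 2 lower in the Q311E pair. Of all tested genes 4.14% were called higher and 4.15% lower. IFIH1 was at 6.48 and 6.29 FPKM in the EmpVec A and B libraries, 6.61 and 6.36 in WTMB21 and 19.6 and 9.42 in Q311E and RIGI at 9.42 and 8.95 FPKM in the EmpVec A and B libraries, 6.45 and 6.41 in WTMB21 and 23.6 and 12 in Q311E, both RNA helicases and both called lower (-0.94 ± 0.11, adjusted p = 0.0171 and -0.89 ± 0.10, adjusted p = 0.0184 in limma). IKBKE, a kinase downstream of the sensors, was the member called higher, at 20.3 and 21.2 FPKM in the EmpVec A and B libraries, 17.7 and 18.4 in WTMB21 and 21.4 and 34.2 in Q311E (0.60 ± 0.091, adjusted p = 0.0285). STING1, the adaptor of cGAS, was at 3.32 and 4.58 FPKM in the EmpVec A and B libraries, 0.457 and 0.626 in WTMB21 and 1.86 and 3.70 in Q311E and was not called (0.45 ± 0.18, adjusted p = 0.159). The class I antigen presentation genes differed little, with a Q311E median of -0.034 and 1 of 16 called, TAP1, a peptide transporter, at 46.6 and 31.5 FPKM in Q311E.

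Proliferation genes were lower in the Q311E B library throughout. Of 25 tested genes of S phase, 25 were lower in B, with a median of -0.54, and 11 were called lower. Of 25 of G2 and mitosis, 25 were lower, with a median of -0.46, and 10 were called lower. The share called lower over all tested genes was 4.15%. In EmpVec 20 and 19 of the 25 were lower with medians of -0.051 and -0.056, and in WTMB21 14 and 16 with -0.0016 and -0.0091. None was past 2-fold in any pair. With no trend in limma's variance prior, 0 of either list were called.

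FEN1, a nuclease of lagging-strand synthesis, was at 79.8 and 78.9 FPKM in the EmpVec A and B libraries, 78.1 and 81.6 in WTMB21 and 77.7 and 45 in Q311E (-0.80 ± 0.089, adjusted p = 0.0171 in limma). CCNA2, cyclin A, was at 30.1 and 26.2 FPKM in the EmpVec A and B libraries, 34.4 and 34.5 in WTMB21 and 27.5 and 15.4 in Q311E (-0.71 ± 0.12, adjusted p = 0.0335). MKI67, the Ki-67 proliferation antigen, was at 33.3 and 28.9 FPKM in the EmpVec A and B libraries, 50.1 and 59.1 in WTMB21 and 41.9 and 22.4 in Q311E and missed the threshold (-0.89 ± 0.18, adjusted p = 0.0504). Q311E B held the lowest level of all 6 libraries for each of the 3. Replication-dependent histones went the other way, with 6 of 8 higher in B and a median of 0.69, and 2 called higher, beside 4.14% of all tested genes. H2BC21 and H3C10 of the 8 reached the filter through the Q311E libraries alone, and were not called. H1-2, a linker histone, was at 13.1 and 9.88 FPKM in the EmpVec A and B libraries, 13.6 and 11 in WTMB21 and 37.5 and 73.4 in Q311E (1.28 ± 0.098, adjusted p = 0.0123).

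Aminoacyl-tRNA synthetases and cytosolic heat shock genes mostly lay lower in the Q311E B library, and ribosomal proteins higher. All 13 tested aminoacyl-tRNA synthetases were lower in B, with a median of -0.34, and 2 were called. Cytosolic heat shock genes were lower for 12 of 14, with a median of -0.45, and 4 were called, beside 4.15% of all tested genes called lower. With no trend in the variance prior 0 of either list were called. HSPA8, the constitutive Hsc70 chaperone, was at 396 and 343 FPKM in the EmpVec A and B libraries, 509 and 510.4 in WTMB21 and 366 and 212 in Q311E (-0.69 ± 0.12, adjusted p = 0.0387 in limma). Over the cytosolic ribosomal proteins 12 of 44 were called higher and 0 lower, beside 4.14% and 4.15% of all tested genes. RPS12 was among the 12, at 758 and 1161 FPKM in Q311E (0.56 ± 0.10, adjusted p = 0.0427 in limma). Under quantile normalization 3 of the 44 were called, and without a trend in the prior 0.

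Immediate early genes were mostly higher in Q311E B. Of 17 tested, 12 were higher, with a median of 0.36. Of the 17, 5 were called higher and 1 lower (3 and 1 with no trend in the variance prior). For each list of this paragraph, the shares over all tested genes were 4.14% called higher and 4.15% lower. EGR2, at 0.611 and 4.95 FPKM in Q311E, was called but reached the filter through those libraries alone, which leaves 4 of 16 called higher. JUNB, an AP-1 subunit, was at 47.7 and 59.9 FPKM in the EmpVec A and B libraries, 63.7 and 64.5 in WTMB21 and 70.1 and 235 in Q311E (1.56 ± 0.14, adjusted p = 0.0134 in limma). ZFP36, which destabilizes cytokine mRNA, was at 10.5 and 11 FPKM in the EmpVec A and B libraries, 30.3 and 27.3 in WTMB21 and 21.1 and 72.6 in Q311E (1.78 ± 0.12, adjusted p = 0.0118). KLF6, a zinc finger factor on the list, was the member called lower, at 32.2 and 15.4 FPKM in Q311E. Feedback genes of the ERK pathway lay the other way, with 10 of 15 lower, a median of -0.28, 4 called lower (1 with no trend in the variance prior) and 0 higher. Of 18 NF-kB targets and chemokines, 6 were called higher and 1 lower (2 and 1 with no trend).

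CCL20, a chemokine for dendritic and T cells, was at 30.0 and 41.3 FPKM in the EmpVec A and B libraries, 12.3 and 11.7 in WTMB21 and 19.8 and 154 in Q311E (2.71 ± 0.21, adjusted p = 0.0134 in limma). IL1A, a cytokine of keratinocytes, was at 114 and 128 FPKM in the EmpVec A and B libraries, 9.85 and 7.99 in WTMB21 and 39.4 and 89.9 in Q311E (1.22 ± 0.19, adjusted p = 0.0295). NFKBIA, the inhibitor that NF-kB itself induces, was at 124 and 137 FPKM in the EmpVec A and B libraries, 116 and 111 in WTMB21 and 114 and 193 in Q311E (0.71 ± 0.11, adjusted p = 0.0309). For CCL20 and NFKBIA the Q311E B library held the highest level of the 6. Of 11 genes that FOXO factors induce in starved cells, 10 were higher in Q311E B, with a median of 0.51. Of the 11, 4 were called higher, beside 4.14% of all tested genes. Without PIK3IP1, which reached the filter through the Q311E libraries alone, 3 of 10 were called. TXNIP, an inhibitor of thioredoxin and glucose uptake, was at 46.1 and 54.1 FPKM in the EmpVec A and B libraries, 26.6 and 25.1 in WTMB21 and 42.6 and 139 in Q311E (1.61 ± 0.15, adjusted p = 0.0134).

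The genes that differed most between the Q311E libraries were higher in B. ID1, an inhibitor of basic helix-loop-helix factors and a BMP target, was at 41.4 and 47.8 FPKM in the EmpVec A and B libraries, 24.5 and 24.9 in WTMB21 and 5.37 and 59 in Q311E (3.12 ± 0.11, adjusted p = 0.00697 in limma). DUSP9, a phosphatase of MAP kinases, was at 2.36 and 2.64 FPKM in the EmpVec A and B libraries, 1.57 and 1.66 in WTMB21 and 1.49 and 21.3 in Q311E (3.08 ± 0.14, adjusted p = 0.00741). STC1, a secreted glycoprotein, was at 7.23 and 9.96 FPKM in the EmpVec A and B libraries, 1.07 and 1.25 in WTMB21 and 2.07 and 26.1 in Q311E (2.88 ± 0.17, adjusted p = 0.0101). CEL, a lipase whose reads cannot be told with certainty from those of its pseudogene, was at 0.608 and 0.813 FPKM in the EmpVec A and B libraries, 0.993 and 0.924 in WTMB21 and 1.42 and 19.9 in Q311E and reached the filter through Q311E B. PIGR, the epithelial receptor that carries IgA, was at 9.29 and 14.1 FPKM in the EmpVec A and B libraries, 0.421 and 0.204 in WTMB21 and 5.85 and 56.9 in Q311E (2.92 ± 0.32, adjusted p = 0.0168). For ID1 the A library was the odd one, below the other 5, and for DUSP9, STC1, CEL and PIGR the B library was, above the other 5.

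Those that were lower in B were mostly high in Q311E A alone. ANKRD1, a YAP target that works in the nucleus of strained cells, was at 12.6 and 12.5 FPKM in the EmpVec A and B libraries, 9.97 and 9.36 in WTMB21 and 40.8 and 6.12 in Q311E (-2.50 ± 0.10, adjusted p = 0.00697 in limma). SFRP1, a secreted WNT antagonist, was listed at 0 in the other 4 libraries and stood at 6.39 and 0.264 FPKM in Q311E. DAPK1, a death-associated kinase, was at 1.40 and 1.81 FPKM in the EmpVec A and B libraries, 0.00492 and 0 in WTMB21 and 4.84 and 0.109 in Q311E. SFRP1 and DAPK1 reached the filter through Q311E A. INTS5, a subunit of the Integrator complex, was at 9.66 and 9.04 FPKM in the EmpVec A and B libraries, 11.2 and 11.2 in WTMB21 and 63.8 and 14.8 in Q311E (-1.99 ± 0.10, adjusted p = 0.00741). TENM2, an adhesion protein, differed in the other way, with Q311E B, at 0.695 FPKM, below the other 5 libraries, which lay between 4.49 and 5.96.

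Lists of secreted and adhesion genes had no single direction. For the Q311E pair against the others 2 of 19 matrix genes were called higher and 4 lower (0 and 1 with no trend in the variance prior), 2 of 10 TGF-beta responsive genes higher and 2 lower, and of 10 genes of the epithelial to mesenchymal switch 0 higher and 1 lower. These are small counts, beside 4.14% of all tested genes called higher and 4.15% lower. INHBA, an activin subunit, was at 14.7 and 12 FPKM in the EmpVec A and B libraries, 22.5 and 22.9 in WTMB21 and 29.4 and 10.6 in Q311E (-1.26 ± 0.15, adjusted p = 0.0182 in limma). INHBB, another activin subunit, was at 0.723 and 0.650 FPKM in the EmpVec A and B libraries, 14.6 and 14.4 in WTMB21 and 16.1 and 3.42 in Q311E (-1.91 ± 0.12, adjusted p = 0.0101), so Q311E A lay near the WTMB21 libraries and B between those and EmpVec. CDH2, N-cadherin, was at 10.5 and 9.58 FPKM in the EmpVec A and B libraries, 17.4 and 17.3 in WTMB21 and 12.7 and 4.24 in Q311E (-1.33 ± 0.11, adjusted p = 0.0134). KRT15, a keratin of basal cells, was higher in B, at 6.09 and 8.80 FPKM in the EmpVec A and B libraries, 2.66 and 2.44 in WTMB21 and 5.09 and 22.2 in Q311E (1.74 ± 0.24, adjusted p = 0.0233).

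Markers of other cell types were also followed, and their part in the differences above was not tested. The summed level of the blood list was 1.83 and 3.19 FPKM in EmpVec, 2.40 and 2.58 in WTMB21 and 4.93 and 18.8 in Q311E. Almost all of it was CD14, a lipopolysaccharide co-receptor, at 1.78 and 3.17 FPKM in the EmpVec A and B libraries, 2.39 and 2.56 in WTMB21 and 4.93 and 18.8 in Q311E (1.41 ± 0.23, adjusted p = 0.0338 in limma). The endothelial list summed to between 15.5 and 35.6 FPKM, nearly all from CDH5, at 22.6 and 35.2 FPKM in Q311E (0.59 ± 0.10, adjusted p = 0.0382). The glandular list, of which 7 of 9 genes had a mean of at least 1 FPKM, summed to 471 and 487 FPKM in EmpVec, 773 and 793 in WTMB21 and 853 and 575 in Q311E. KRT8, a keratin of simple epithelia, was at 254 and 251 FPKM in the EmpVec A and B libraries, 404 and 415 in WTMB21 and 451 and 236 in Q311E, and KRT18, its partner, at 192 and 206 FPKM in the EmpVec A and B libraries, 347 and 356 in WTMB21 and 354 and 234 in Q311E, while MUC1, a mucin, stood at 5.24 and 6.55 FPKM in the EmpVec A and B libraries, 4.47 and 4.32 in WTMB21 and 15.2 and 62.7 in Q311E. The 2 keratins were thus lower and the mucin higher in Q311E B. The fibroblast list, with 2 of 8 genes at a mean of at least 1 FPKM, summed to between 2.56 and 3.86 FPKM, and the melanocyte list to at most 0.464. VWF, a defining endothelial marker, was at most 0.0801 FPKM in any library, and PTPRC was at or near 0.

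Genes next to each other on the end of the long arm of chromosome 7 differed together between the Q311E libraries. Medians were taken over windows of 31 consecutive tested genes, and the highest window in the Q311E pair is described, so its values are no test. It ran from ZNF767P to INSIG1 (GRCh38 chromosome 7, 149547154 to 155310235). All 31 genes were higher in Q311E B, with a median of 0.69, beside 0.049 in EmpVec and -0.033 in WTMB21. The 1st and 99th percentiles of all Q311E windows were -0.232 and 0.271, and the highest windows of EmpVec and WTMB21 had medians of 0.167 and 0.060.

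TMUB1, a ubiquitin-like membrane protein, was at 36.5 and 37.9 FPKM in the EmpVec A and B libraries, 31.7 and 33 in WTMB21 and 20.5 and 43.1 in Q311E (0.98 ± 0.087, adjusted p = 0.0134 in limma). CDK5, a cyclin-dependent kinase best known from neurons, was at 10.5 and 11.2 FPKM in the EmpVec A and B libraries, 7.31 and 7.82 in WTMB21 and 5.29 and 11.9 in Q311E (0.95 ± 0.11, adjusted p = 0.0169). RHEB, the GTPase that activates mTORC1, was at 45.7 and 46.1 FPKM in the EmpVec A and B libraries, 43.8 and 42.4 in WTMB21 and 30.2 and 46.1 in Q311E (0.61 ± 0.089, adjusted p = 0.0267). These 3 were chosen after their values were seen. In TMUB1, CDK5 and RHEB the A library lay below the other 5, while the B library lay above the EmpVec and WTMB21 libraries for TMUB1 and CDK5 and level with the EmpVec libraries for RHEB. Against the mean of those libraries, the window's median lay at -0.38 for library Q311E A and at 0.35 for Q311E B, with 24 of the 31 genes below it in A and 21 above it in B.

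**Figure D5:**
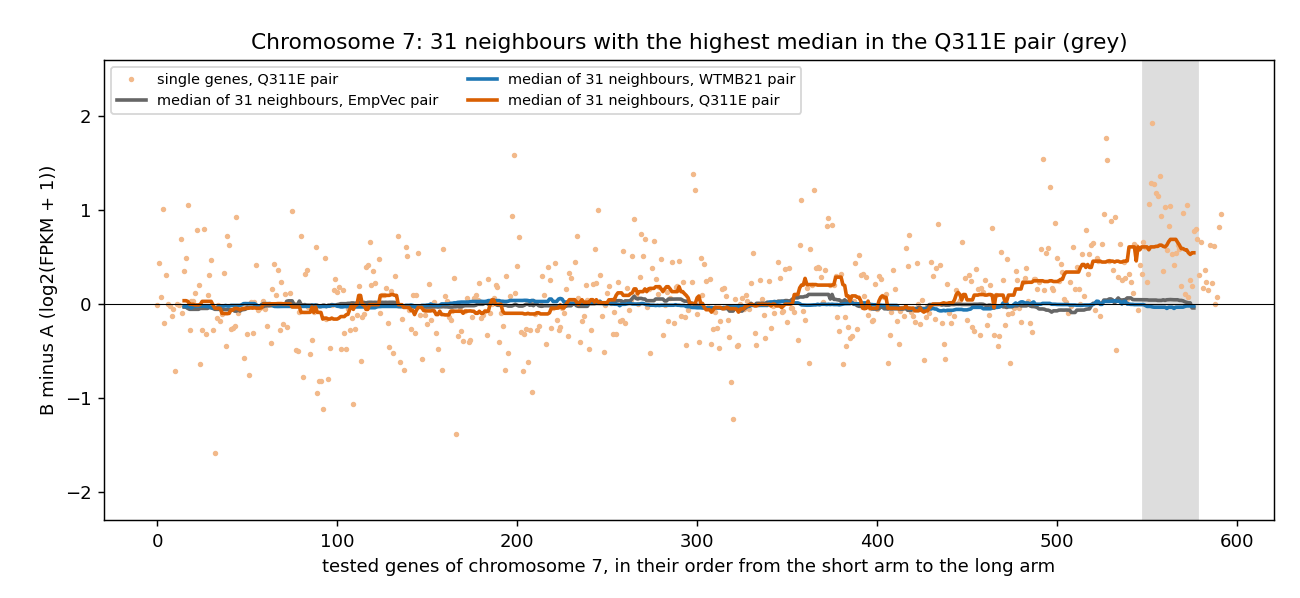
B minus A (y axis, log2(FPKM + 1)) along the tested genes of chromosome 7 in their order (x axis), with single genes of the Q311E pair as points and medians of 31 neighbours as lines for EmpVec (grey), WTMB21 (blue) and Q311E (orange). In the shaded window the Q311E median reaches 0.69, while the other lines stay near 0.

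On some lists EmpVec and Q311E lay on opposite sides of 0 as deposited. The replication-dependent histones had medians of -0.13 in EmpVec and 0.69 in Q311E, the matrix genes of 0.045 and -0.37 and the fatty acid synthesis genes of 0.066 and -0.15. With equal sums of FPKM the histones stayed on opposite sides, at -0.21 and 0.58. The matrix genes then lay on the same side, at -0.026 and -0.47, as did the fatty acid synthesis genes, at -0.015 and -0.28. Cholesterol synthesis was another list with medians on opposite sides of 0. Of 25 tested genes, 19 were higher in B in EmpVec and 18 were lower in Q311E, with medians of 0.12 and -0.11, and 12 were higher in WTMB21. With equal sums of FPKM 14 were higher in EmpVec and 4 in Q311E, with medians of 0.040 and -0.24, and the Q311E median was -0.069 with median scaling. HMGCS1, an early enzyme of the pathway, was at 11.3 and 10.9 FPKM in the EmpVec A and B libraries, 5.58 and 5.62 in WTMB21 and 54 and 27.3 in Q311E (-0.94 ± 0.099, adjusted p = 0.0165 in limma). It was the 1 member of 25 called, beside 4.15% of all tested genes called lower. Targets of p53 showed no lean in any pair, with medians of 0.027, -0.0024 and -0.016 over 18 genes and 0 called in the Q311E test. GDF15, a stress cytokine on that list, was nonetheless higher in B in EmpVec and Q311E, at 7.02 and 12 FPKM in the EmpVec A and B libraries, 1.43 and 1.35 in WTMB21 and 13.7 and 28.1 in Q311E (0.67 ± 0.30, adjusted p = 0.209).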

How the data were processed

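RNA of 6 libraries from 3 CAL27 lines was sequenced, with a library A and a library B in each line. The deposited table held FPKM values for 30178 human Ensembl genes, made by the authors. Per the labels' protocols, total RNA came from a QIAGEN extraction and library preparation was Illumina's standard one. The submitters' processing notes name CASAVA and the builds mm 8 and mm 9 with no role given, though the gene IDs are human. How reads were aligned and counted, with which annotation and whether by strand, is not given in the sources used here. All 6 columns were used. Gene names came from a name table, and positions and exon lengths from GENCODE release 29 on GRCh38.

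Low FPKM values were whole multiples of 1 read. Library totals were inferred from these values. Whole reads within 0.001 were recovered for 30030 genes (99.51%) and for 11471 of the 11481 genes tested. The GENCODE length gave them for 22361 genes. For the other 7669 a length was searched for that made the reads whole, so that part of the share follows from the search. The read limits, the counting ratios and the limma-voom run rest on these reads. Limma 3.58.1 in R 4.3.3 was run on log2(FPKM + 1) of genes whose mean FPKM reached 1, with a trend in the variance prior. A fit with the line as a block gave B minus A over the 3 pairs, and a fit with 1 pair's own difference gave each pair against the mean of the others. The first had 2 residual degrees of freedom and the others 1. Those with 1 assume that the single pair varies as the other 2 do. The letters pair libraries only within a line, by their titles. Calls needed an adjusted p under 0.05 (two-sided, Benjamini-Hochberg over all genes tested), and errors are SEs. The fits were tested on simulated data in which all libraries had the same noise, set from the WTMB21 pair. False calls from a Q311E pair with a wider spread were therefore not checked. Of 670 listed symbols, 657 were in the table and 604 were tested. Tools were also numpy 2.4.6, pandas 2.3.3 and matplotlib 3.10.9.

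The comparison, gene lists and members were chosen with earlier results of these data known. Named genes are MB21D2, the 8 largest differences in each direction per pair and per test (for the shared test, those with the largest smallest difference over 3 pairs), and the 3 members of each list with the largest difference. The text prints a selection of these. Some genes are not reported here. Chosen after their values were seen were the genes from the limit of 100 reads (such as S100A14, HLA-DRB1, CYP51A1, MYBL1, FOS, EGR1, CCND1, DKK1, THBS1, POLR2I, HSD11B2, MTND2P28 and INHBB), list members named for going against or with their list (KLK5, P4HA2, VEGFA, KLF6, IKBKE, NFKBIA, ISG15, IFIT1, IRF7, STAT2, MT-CO1, IFITM1, IFITM3, BST2 and LGALS3BP), CD14, CDH5, the other markers of cell types, and TMUB1, CDK5 and RHEB. Alternatives were other pseudocounts, filters, scalings, recovered reads and fits without 1 pair.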

Additional observations from a re-analysis of the deposited data

Results flagged for a closer look

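B minus A differed between the lines by a test of that difference for 951 genes, called in limma for the Q311E pair against the mean of the other pairs. That test assumes that the lone Q311E pair varies as the other pairs do, and its count ran from 0 to 2087 between settings. The calls may therefore reflect a noisier pair, and are not an established difference between lines. Each value below is that difference on the log2(FPKM + 1) scale, with an adjusted p under the threshold, and each compares 1 pair with 2.

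In the Q311E pair the S100 genes were higher, with S100A8 at 3.52, S100A9 at 2.89 and S100A7 at 2.51. Single genes with wide differences were ID1 at 3.12, DUSP9 at 3.08, PIGR at 2.92 and STC1 at 2.88. The hypoxia genes CA9, NDRG1, DDIT4, EGLN3 (an oxygen-sensing hydroxylase) and BNIP3 (a mitophagy receptor) were higher by 2.10, 2.03, 1.66, 1.47 and 1.25, and P4HA2 differed by -0.76. The inflammatory genes CCL20, CXCL3, IL1A and NFKBIA were higher by 2.71, 1.42, 1.22 and 0.71. The immediate early genes JUNB and ZFP36 were higher by 1.56 and 1.78, and KLF6 differed by -1.01. The FOXO-induced genes TXNIP and ARRDC3 were higher by 1.61 and 1.36.

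The interferon-stimulated genes were lower in the Q311E pair, with MX1 at -1.67, IFI6 at -1.57, ISG15 at -1.39 and IFIT1 at -1.28. The RNA sensors IFIH1 and RIGI stood at -0.94 and -0.89, TAP1 at -0.53 and IRF7 at -0.91, and the kinase IKBKE at 0.60. IFNGR1 and SOCS1, a brake on interferon signalling, were higher by 1.01 and 0.94. Other genes lower in the Q311E pair were ANKRD1 at -2.50, INHBB at -1.91, AXL at -1.32, CDH2 at -1.33, INHBA at -1.26, ROR1 at -1.23, F3 at -1.16 and THBS1 at -0.93. INTS5 stood at -1.99 and STC2 at -0.89.

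Of the cell cycle genes, FEN1, CDC6, CCNA2 and TPX2 differed by -0.80, -0.71, -0.71 and -0.66, and the histone H1-2 was higher by 1.28. HSPA8 differed by -0.69, GARS1 by -0.67 and HMGCS1 by -0.94, while the ribosomal genes RPS12 and RPS28 were higher by 0.56 and 0.49. Epithelial and surface genes included KRT15 at 1.74, TJP3 at 1.17, HLA-DRB1 at 1.00, CD14 at 1.41, CDH5 at 0.59 and KLK5 at -0.46. On chromosome 7, TMUB1, CDK5 and RHEB were higher by 0.98, 0.95 and 0.61.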

How the results depend on the processing

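The shared B minus A test called 0 genes under every setting tried, also with no replicate block, where the letters were compared without pairing within a line (0 genes called, 31 at an unadjusted p under 0.05), and in the fits without 1 pair (0 to 0). The Q311E count of 951 became 0 with no filter, 1786 with TPM scaling, 2087 on recovered reads with limma-voom, 1928 for genes with at least 100 reads, 1434 when scaled without mitochondrially encoded genes and 271 with no trend in the prior. The cause was not tested. The EmpVec test called 6 genes with TPM scaling and 0 under the other settings, and the WTMB21 test 0 under all. The 2-fold counts of the EmpVec, WTMB21 and Q311E pairs were 141, 100 and 687 with a pseudocount of 0.1, 150, 107 and 733 on recovered reads, 13, 4 and 192 with a mean FPKM of at least 5, and 192, 97 and 1494 at 1.5-fold. With no filter EmpVec and WTMB21 gave 149 and 93, and with at least 100 reads 9 and 1. The EmpVec and Q311E correlation was 0.215 with no filter and between 0.30 and 0.557 under the other settings. For the 63 genes printed with the Q311E test, 588 of 688 values under alternatives kept direction and call, 95 lost the call, 5 gained one and 0 reversed. Leaving out a pair leaves those tests no residual degrees of freedom, so they were not run. The settings with at least 100 reads, without the length trend and without mitochondrially encoded genes in the scaling, and all those of the correlation, were chosen after seeing the data.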
